A study of Mus musculus with 73 samples.

Results

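The stretch of mouse chromosome 5 described here was chosen to hold the neighbouring genes Alb, Afp and Afm. It runs over mm9 chr5:90860000-91000000, and its members are every measured region whose start lies in it. They are 27 of 33302 FoxA sites of 400 bp measured by whole-genome bisulfite sequencing (WGBS), 0 sites of the deposited list of hyper-methylated sites (8.12% of all FoxA sites), 36 of 817277 tiles of 100 bp measured by reduced representation bisulfite sequencing (RRBS), and 27 HNF6 peaks spread over 7 peak lists. WGBS reads cytosine methylation across the genome, RRBS reads it at CpG-rich fragments, and the HNF6 peaks come from chromatin immunoprecipitation of that transcription factor. No annotation of mm9 was used here, so sites are given by position and are not assigned to an exon, intron or promoter.

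The study removed FoxA factors from mouse liver at different times. For WGBS and HNF6, the control mice carried Foxa1L/L;Foxa2L/L alleles without Cre and were 8 weeks old. Developmental null mice of that age carried the same alleles with Alfp Cre, which acts in the developing liver. Adult null mice had the same alleles and received an AAV8 vector with Cre under the hepatocyte-specific Tbg promoter at 8 weeks, 1 month before sampling. WGBS used isolated hepatocytes with 2 libraries per group; HNF6 used liver, with 3 libraries of controls and 2 of each kind of null. RRBS covered 27 libraries of hepatocyte DNA. An age series held 4 controls and 4 FoxA developmental double nulls, 1 library of each genotype for the ages of 20 days, 8 weeks, 4 months and 6 months. At 8 weeks there were 2 libraries of FoxA1L/L;FoxA2L/+ and 2 of FoxA1L/+;FoxA2L/+ mice, depleted in development. FoxA triple nulls were sampled 7 days (3 libraries, 9 weeks old) and 13 days (2 libraries, 12 weeks old) after Cre, with 3 and 2 controls of the genotype FoxA1L/L;FoxA2L;L;FoxA3-/- that had received GFP and, like the triple nulls, lacked FoxA3. FoxA double nulls made in adulthood (3 libraries) and controls injected with AAV GFP (2 libraries) were sampled at 12 weeks after partial hepatectomy. Alfp Cre is itself driven by albumin and alpha-fetoprotein regulatory sequence, so where the transgene carries a copy of a measured element, its reads and those of the chromosome 5 locus cannot be told apart in the developmental nulls.

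Albumin, the product of Alb, is the main protein of blood plasma and is made by hepatocytes throughout life. Alpha-fetoprotein, from Afp, is its fetal counterpart and is switched off in the liver after birth, while Afm encodes afamin, a carrier of vitamin E. FoxA proteins are forkhead factors that can bind closed chromatin, and the albumin enhancer is a textbook case of such binding. HNF6, encoded by Onecut1, is a liver factor of the cut-homeodomain family that often binds near FoxA.

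The promoters are shown because they hold few positions that can be methylated at all and because they carry HNF1-like letters. Those of Alb and Afp also carry forkhead-like letters. Each sequence is the 250 bases before the RefSeq start of the gene in GRCm38.p6, on the plus strand and 5′ to 3′. These coordinates belong to another build than the mm9 sites and were not compared with them. Capitals mark matches to the searched motifs. Forkhead-like letters were searched on both strands as TGTTTGC, then with an A near the end as TGTTTAC, then with another start as TATTTAC, and last in the form TATTGAC. HNF6-like letters were searched as ATTGATT or, for the other form, as ATCGAT, and HNF1-like letters as GTTAAT.
Alb, chr5:90460620-90460869: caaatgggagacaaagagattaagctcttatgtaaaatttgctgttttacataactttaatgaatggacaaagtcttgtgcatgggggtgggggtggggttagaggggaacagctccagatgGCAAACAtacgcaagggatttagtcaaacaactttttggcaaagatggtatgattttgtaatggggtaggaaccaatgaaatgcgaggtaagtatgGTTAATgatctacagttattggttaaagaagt
Afp, chr5:90490464-90490713: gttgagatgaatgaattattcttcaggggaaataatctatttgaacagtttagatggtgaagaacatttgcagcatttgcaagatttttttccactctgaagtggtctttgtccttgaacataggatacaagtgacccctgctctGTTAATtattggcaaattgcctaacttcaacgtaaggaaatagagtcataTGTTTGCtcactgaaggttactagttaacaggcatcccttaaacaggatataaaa
Afm, chr5:90518699-90518948: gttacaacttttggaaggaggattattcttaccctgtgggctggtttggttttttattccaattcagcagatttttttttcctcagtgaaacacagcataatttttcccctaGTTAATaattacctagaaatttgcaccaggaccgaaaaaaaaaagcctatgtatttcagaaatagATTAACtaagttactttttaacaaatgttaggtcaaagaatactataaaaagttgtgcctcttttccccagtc

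The Alb promoter held 1 match to TGTTTGC, on the minus strand 128 to 122 bases before the start, and 1 match to GTTAAT 32 to 27 bases before it. The Afp promoter held 1 match to TGTTTGC on the plus strand, 55 to 49 bases before the start, and 1 match to GTTAAT at 105 to 100 bases. The Afm promoter held 2 matches to GTTAAT, on opposite strands, and none of the forkhead-like words. No match to either HNF6-like word lay in the 3 windows. Among 32851 promoters of the same length, 4.30% held TGTTTGC, 6.43% held GTTAAT, 10.8% held any of the forkhead-like words and 3.32% held either HNF6-like word. The Alb window held 2 CpG dinucleotides, and the Afp and Afm windows 1 each, against a median of 6 over all promoters; 29.0% of promoters held 2 or fewer. The promoters are poor in CpG, so few methylation readings are possible there.

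FoxA sites were dense in the window: its 27 sites formed 17 separate regions, and an average stretch of this length held 1.94 sites. Of 17141 stretches of 140 kb tiled along the genome, 4 held 27 sites or more. Overlapping sites share reads and CpGs, and 3 pairs of overlapping sites (6 and 7, 9 and 10, 23 and 24) had the same level as each other in each library, so the 27 sites are not independent. WGBS depth per site was not in the files, so no counting interval can be given, and p-values measure the spread between libraries, for which the labels name no separate animals.

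Most FoxA sites of the albumin locus were low in methylation in every group. In controls, 25 of the 27 sites had a mean under 25%, between 2.56% and 21.1%, and over all FoxA sites 70.3% lay under that level. The median control mean was 8.64% in the window and 10.6% over all sites. Averaged over the window, control 1 stood at 11.9% and control 2 at 15.4%. The developmental null libraries stood at 13.6% and 13.0%, and the adult null libraries at 11.8% and 11.7%. The window means of both kinds of null lay between or just below those of the controls. Over all 33302 FoxA sites, in contrast, the mean was 21.5% ± 1.27 (SD, n = 2) in controls and 25.6% ± 0.052 (SD, n = 2) in developmental nulls. The adult null mean of 20.0% ± 0.293 (SD, n = 2) covers only the 28654 sites with adult values. It is therefore not directly comparable with the other means. Control 2 exceeded control 1 at 22 of the 27 window sites, by a median of 3.67 points, against 1.37 points over all sites, and this gap between controls bears on each difference below.

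**Figure D1:**
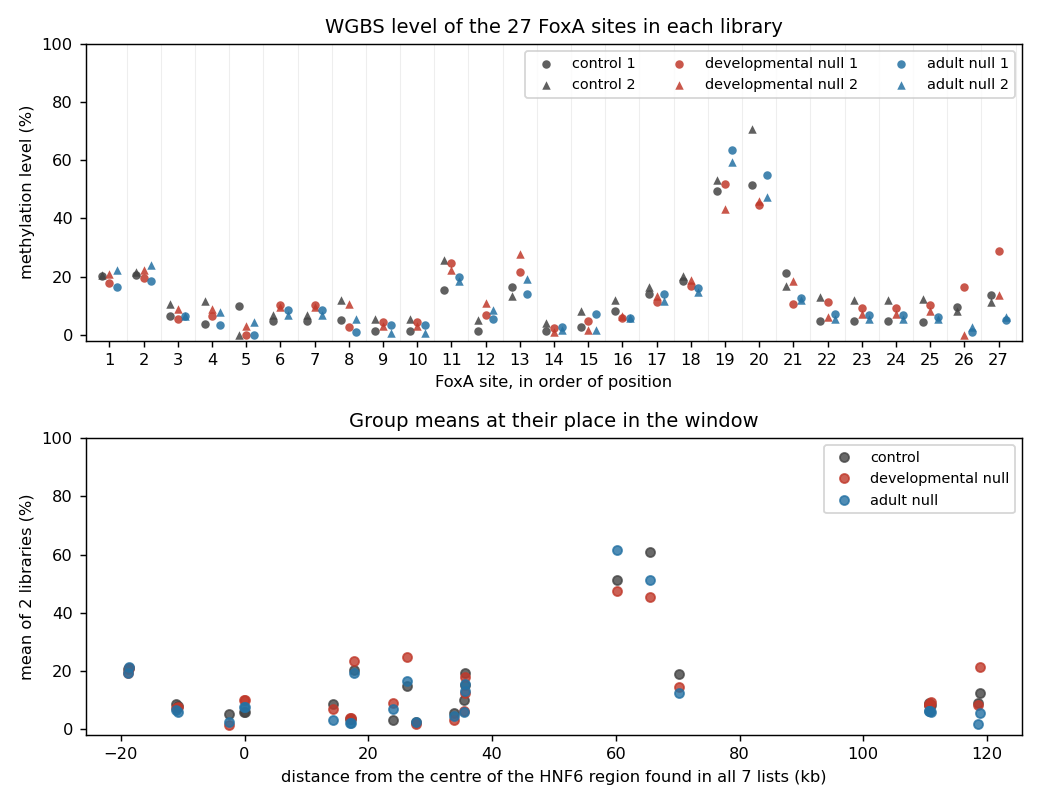
WGBS methylation level (%) of the 27 FoxA sites of the window in each of 6 libraries, in order of position (top; circles are library 1 and triangles library 2 of each group), and the group means against the distance in kb from the centre of the HNF6 region found in all 7 lists (bottom). Sites 19 and 20 have control means near 50% to 60%, and the control means of the other 25 sites lie under 25%.

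FoxA loss in development did not raise methylation at this locus by an amount the test called. In the limma moderated test on percent methylation, with Benjamini-Hochberg adjustment over all 33302 sites, 0 of the 27 window sites passed an adjusted p of 0.05, against 4.42% of all sites. That background itself fell to 0 calls when any 1 of the 4 libraries was left out. No window site had an unadjusted p under 0.05 either, against 19.9% of all sites, and the lowest adjusted p in the window was 0.285. The median difference was -0.28 points in the window and 1.07 points over all sites, with 9 window sites higher and 18 lower in developmental nulls; over all sites 59.9% were higher and 39.8% lower. The sign of that median turned on the control: it was 1.49 without control 2, with 18 sites higher and 9 lower, and -2.36 without control 1. It was 0.47 without developmental null 2. None of the 27 sites gained 10 points or more, against 19.2% of all sites and 12.8% of the sites with a control mean under 25%. Within 5 points of control lay 23 of the 27 sites, against 59.8% of all sites, and 22 of the 25 low ones, against 70% of all low sites. None was in the deposited list of sites that gained at least 20 points, which holds 8.12% of all FoxA sites, 9.63% of those in the window's range of control levels and 5.69% of the low ones.

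**Figure D2:**
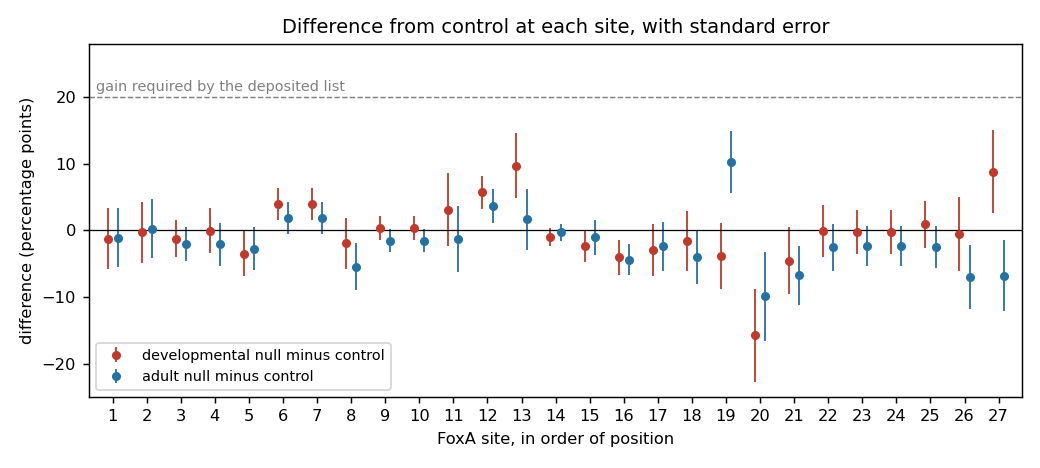
Developmental null minus control and adult null minus control (percentage points) at each of the 27 FoxA sites, with the standard error of the limma fit. The differences run from -15.8 to 9.73 points in developmental nulls and from -9.92 to 10.3 points in adult nulls, and the dashed line marks the gain of 20 points that the deposited list required.

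The site with the largest difference lost methylation in the developmental null means. FoxA site 20 of the window, at chr5:90944594-90944993, stood at 51.4% and 70.7% in the controls, 44.5% and 46.0% in the developmental nulls and 55.0% and 47.2% in the adult nulls. Both developmental null libraries lay below both controls, while the controls differed from each other by more than the groups did. The difference was -15.8 ± 7.01 points (standard error, n = 2 against 2; adjusted p = 0.297, limma).

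The largest gains were smaller than 10 points. FoxA site 13, at chr5:90905347-90905746, stood at 16.4% and 13.5% in controls, 21.7% and 27.7% in developmental nulls and 14.1% and 19.2% in adult nulls. The developmental null libraries both lay above the other 4, and the difference was 9.73 points (adjusted p = 0.354). FoxA site 27, at chr5:90997868-90998267 near the far edge, stood at 13.8% and 11.1% in controls, 28.7% and 13.8% in developmental nulls and 5.11% and 6.16% in adult nulls. Its gain of 8.84 points came mainly from developmental null 1 (adjusted p = 0.512).

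FoxA sites 16 and 21 were slightly lower in the developmental null means. Site 16, at chr5:90914499-90914898, stood at 8.33% and 11.9% in controls, 5.78% and 6.40% in developmental nulls and 5.71% and 5.79% in adult nulls. All 4 null libraries lay below both controls, with differences of -4.04 points in developmental nulls (adjusted p = 0.476) and -4.38 points in adult nulls. Site 21, at chr5:90949184-90949583, stood at 21.3% and 16.8% in controls, 10.5% and 18.5% in developmental nulls and 12.6% and 12.0% in adult nulls; the developmental difference was -4.58 points, and its libraries overlapped the controls (adjusted p = 0.694). The smallest differences were at site 4 (-0.072 points, chr5:90868245-90868644), site 22 (-0.11 points, chr5:90989660-90990059) and the pair of sites 23 and 24 (-0.25 points each, chr5:90989712-90990147), which gave identical levels. Site 4 stood at 3.80% and 11.7% in controls, 6.49% and 8.88% in developmental nulls and 3.46% and 7.89% in adult nulls. Site 22 stood at 4.62% and 13.0%, 11.4% and 5.98%, and 7.17% and 5.35% in the same order. Sites 23 and 24 stood at 4.87% and 11.9%, 9.26% and 6.98%, and 6.69% and 5.39%. At these sites the control libraries lay farther apart than the group means.

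Counted by separation alone, both developmental null libraries lay above both controls at 5 window sites, against 33.9% of all sites, and below both at 3, against 14.9%. With 2 libraries a group such a separation is common, and the count of 5 of 27 is below the share over all sites.

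**Figure D3:**
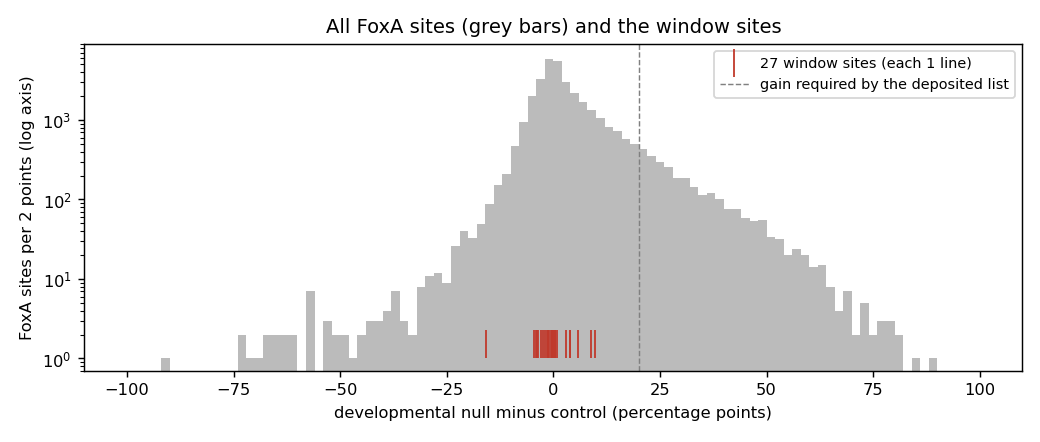
Developmental null minus control (percentage points) for all 33302 FoxA sites, as bars of 2 points on a log axis, with each of the 27 window sites as a red line. The window sites lie between -15.8 and 9.73 points, while the upper tail of all sites runs past the dashed line at 20 points.

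Adult null libraries had lower mean levels than controls at most window sites, without a call. The adult nulls had received the AAV vector and were sampled 1 month after the age of 8 weeks. The controls were 8 weeks old, and no vector is named for them. Genotype, age and vector cannot be told apart in this comparison. With the limma test over 28654 sites of both tables, 0 of the 27 window sites passed, and 0% of all sites did; the count with an unadjusted p under 0.05 was 0 in the window and 2299 over all sites, or 8.02%. The median difference was -2.08 points in the window and -1.25 points over all sites, with 6 sites higher and 21 lower; over all sites 34.6% were higher and 65.2% lower. Without control 2 it was 0.54 points, with 16 sites higher and 11 lower, and without control 1 it was -3.98 points. Both adult null libraries lay above both controls at 2 sites (10.2% of all sites) and below both at 6 (28% of all sites). The largest rise was at FoxA site 19, at chr5:90939294-90939693, which stood at 49.3% and 53.2% in controls, 51.7% and 43.1% in developmental nulls and 63.5% and 59.5% in adult nulls. It was the only window site at least 10 points higher in adult nulls, against 2.23% of all sites, while 21 of the 27 lay within 5 points of control, against 73.3%. Site 19 was chosen after its values were seen; both adult nulls were its highest libraries, and the difference was 10.3 points.

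The direct test of developmental against adult null passed at 0 of the 27 window sites, against 8.03% of all sites (limma, 6 libraries sharing the spread). The calls over all sites depended on each library: 2302 with all of them, 789 or 719 without developmental null 1 or 2, and 225 or 219 without adult null 1 or 2. The window median was 2.01 points higher in developmental nulls and the median over all sites 2.51 points, with 19 window sites higher and 8 lower, against 73.7% of all sites higher. Unadjusted p-values under 0.05 were reached at 2 window sites, against 22.2% of all sites. These were site 27, 15.6 ± 5.29 points higher in developmental nulls (adjusted p = 0.134, limma), and site 19, with a difference of -14.1 ± 4.68 points (adjusted p = 0.128, limma). When only sites with a mean level of 5% to 95% were tested, site 27 passed with an adjusted p of 0.0386.

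The nearest site of the deposited hyper-methylated list lies just outside the window, at chr5:91011231-91011630 and 13.0 kb beyond the last window site, with no other FoxA site between them. It stood at 28.7% and 32.4% in controls, 62.2% and 60.6% in developmental nulls and 40.4% and 34.8% in adult nulls. Both developmental nulls stood far above the other 4 libraries. On the other side the nearest listed site was at chr5:90708500-90708899, 151 kb before the first window site, with group means of 31.9% in controls and 53.3% in developmental nulls. Both flanking listed sites started from a control level near 30%, higher than that of 25 of the 27 window sites.

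RRBS tiles of the window ranged from nearly unmethylated to nearly fully methylated in every group. Of the 36 tiles, 33 had a value in at least 1 library, 13 in all 27 libraries, and 12 overlapped a FoxA site. Among the 13 complete tiles, 6 had a median over libraries of 3.57% to 7.69%, 4 had a median of 81.4% to 95.1%, and 3 lay between 25% and 75%. Of the 5 complete tiles overlapping a FoxA site, 4, tiles 14 to 17 at chr5:90914701-90915100, were among the low ones. The low tiles stayed at or under 41.2% and the high ones at or above 70.8% in each of the 27 libraries.

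No window tile passed the limma test in any RRBS comparison. In the age series 0 of 13 tiles passed, against 0.238% of all 369462 tiles. At 7 days after Cre it was 0 of 23 tiles, against 0.00416%, and at 13 days 0 of 16, against 0.00747%. After partial hepatectomy it was 0 of 23, against 0.00186%. For FoxA1L/L;FoxA2L/+ it was 0 of 13, against 6%, and for FoxA1L/+;FoxA2L/+ 0 of 13, against 6.09%; both used the mixed-age controls of the age series, so genotype and age are not separated there and the comparisons share those controls. Those backgrounds depended on each library too: 23161 calls for FoxA1L/L;FoxA2L/+ fell to 4476 or 4038 without its library 1 or 2, and 23795 for FoxA1L/+;FoxA2L/+ fell to 3109 or 2903. Unadjusted p-values under 0.05 were reached at 1 tile in the age series (8.77% of all tiles), 1 at 7 days (4.1%), 1 for FoxA1L/+;FoxA2L/+ (19.3%) and 0 at 13 days (4.68%), after hepatectomy (4.67%) and for FoxA1L/L;FoxA2L/+ (19.5%). With so few calls over all tiles in the adult experiments, no call among 16 to 23 tiles says little about the locus.

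The tile with the largest difference overlapped FoxA site 20 and had its highest levels at 20 days in both genotypes. Tile 26, at chr5:90944901-90945000, stood in the 20-day control at 94.0%, in the 8-week control at 75.5%, in the 4-month control at 58.1% and in the 6-month control at 47.6%. The developmental nulls stood at 89.5%, 20.6%, 33.3% and 32.5% at the same ages. Both 20-day libraries were above all 6 older ones, and the null was lower than the control of its age at all 4 ages, with differences of -4.53, -54.9, -24.7 and -15.1 points in that order. Over the series the difference was -24.8 ± 11.5 points (standard error, n = 4 against 4, adjusted p = 0.546, limma). That fit did not pair the ages, so the spread between ages is part of the standard error. With ages as blocks, the lowest adjusted p of the window tiles was 0.148 (limma). With 1 library left out it ran from 0.0605 (20-day null) to 0.774 (8-week null). Against the same mixed-age controls, FoxA1L/L;FoxA2L/+ libraries differed by -24.8 points, with a mean of 44.0% (adjusted p = 0.366, limma). FoxA1L/+;FoxA2L/+ libraries differed by -15.7 points, with a mean of 53.1% (adjusted p = 0.634, limma). The libraries of both these genotypes were 8 weeks old, and the only age series control of that age stood at 75.5%. The controls together ran from 94.0% at 20 days to 47.6% at 6 months. Genotype and age therefore cannot be told apart in these negative differences. The WGBS difference of site 20, in 8-week-old mice, had the same sign. Tile 25, which lies beside tile 26 in the same site, was low, with a median of 4.76% and a highest level of 36.4% over 25 libraries. In the adult experiments tile 26 stood at 56.2% ± 2.42 (SD, n = 3) in controls and 48.6% ± 9.93 (SD, n = 3) in triple nulls at 7 days. At 13 days it stood at 43.3% ± 0.631 (SD, n = 2) in controls and 46.7% ± 4.71 (SD, n = 2) in triple nulls. After hepatectomy it stood at 62.7% ± 22.9 (SD, n = 2) in controls and 55.9% ± 6.06 (SD, n = 3) in double nulls. Tests of whether the age series difference exceeded that of the 7-day, 13-day or hepatectomy experiment passed at none of the 13 tiles (lowest adjusted p = 0.939, limma).

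High levels at 20 days in both genotypes were found at 2 of the 13 tiles, tile 26 and tile 11, against 3.62% of all tiles. Tile 11, at chr5:90894601-90894700, stood at 35.0% in the 20-day control and, among the older controls, at 6.67% (8 weeks), 0% (4 months) and 7.41% (6 months). In nulls it stood at 32.0%, 3.23%, 16.7% and 7.69%. It was chosen for description by this pattern after its values were seen. No tile had both 20-day libraries below all older ones, against 5.7% of all tiles. With 1 library for each age and genotype, age has no replicate of its own and no test was made.

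The other tiles with the largest differences moved by less than 7 points. Tile 23, at chr5:90933901-90934000, stood at 53.9%, 66.0%, 68.5% and 71.5% in controls and 68.8%, 75.4%, 67.9% and 75.3% in nulls from the youngest to the oldest age. Tile 24, the neighbouring tile at chr5:90934001-90934100, stood at 76.6%, 75.2%, 73.9% and 74.0% in controls and 78.1%, 76.8%, 80.1% and 81.2% in nulls. At tile 24 all 4 nulls lay above all 4 controls, which held for 1.93% of all tiles, with a mean difference of 4.14 points. No window tile had all 4 nulls below all 4 controls, against 0.978% of all tiles. Tile 32, at chr5:90983701-90983800, stood at 70.8%, 84.6%, 88.1% and 78.4% in controls and 82.4%, 94.4%, 84.0% and 75.8% in nulls. All 3 tiles lay above 50% in all 8 libraries. Tile 15, at chr5:90914801-90914900 in FoxA sites 16 to 18, stood at 12.2%, 10.7%, 5.66% and 11.6% in controls and 5.71%, 6.67%, 5.00% and 2.63% in nulls, a mean difference of -5.05 points. Tile 18, at chr5:90921701-90921800, stood at 27.1%, 3.12%, 0% and 3.12% in controls and 0%, 0%, 14.1% and 0% in nulls. Its difference of -4.82 points rested on the 20-day control and was 1.43 points without it.

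**Figure D4:**
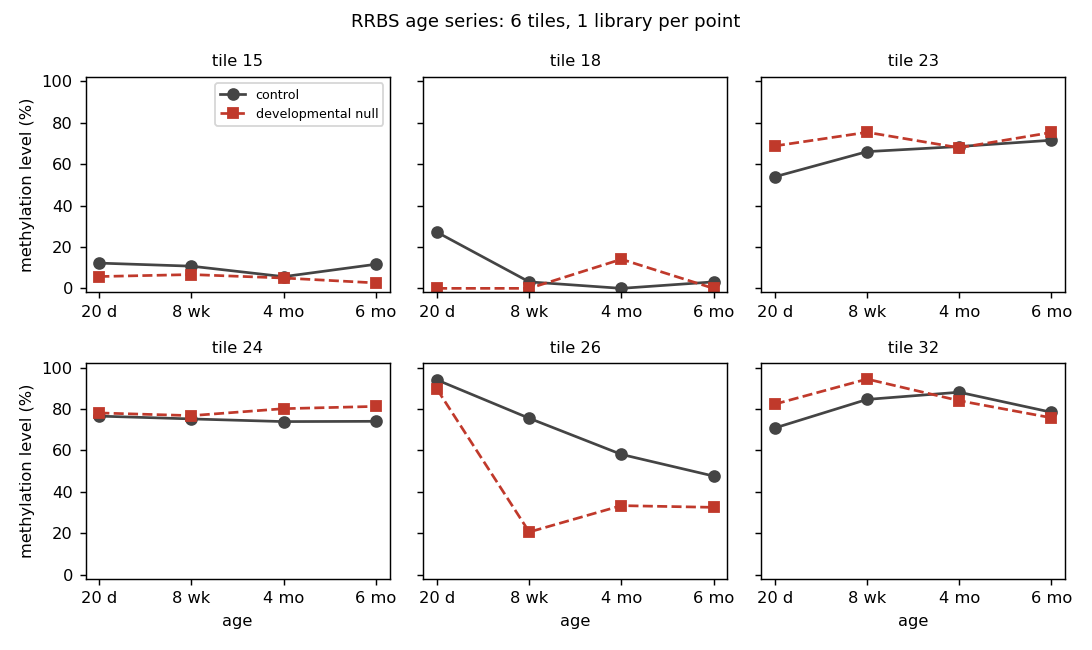
RRBS methylation level (%) of the 6 window tiles with the largest age series difference, at 20 days, 8 weeks, 4 months and 6 months, with 1 control library (grey circles) and 1 developmental null library (red squares) per age. From 20 days to 6 months, tile 26 goes from 94.0% to 47.6% in controls and from 89.5% to 32.5% in nulls. Its lowest null level is 20.6%, at 8 weeks. The other tiles stay within 30 points over the 4 ages in each genotype.

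HNF6 peaks of the window formed 10 separate regions over the 7 lists, and 1 of them was in every list. That region, at chr5:90879025-90879432, overlapped FoxA sites 6 and 7. Its fold enrichment, as the authors' peak caller gave it, was 14.0, 9.12 and 6.00 in controls 1, 2 and 3, 12.8 and 14.9 in the developmental nulls, and 22.5 and 12.0 in the adult nulls. Its false discovery rate from the caller was 23.3% in adult null 1 and 5.41% in adult null 2. In the developmental null lists it ranked 56 of 3122 and 10 of 1188 peaks by fold. The ranks were 1054 of 5767, 1537 of 4652 and 852 of 1770 in controls 1, 2 and 3. In adult nulls 1 and 2 they were 1150 of 4028 and 2843 of 5678. Where the Alfp Cre transgene carries this sequence, its reads cannot be told apart from those of the locus in developmental nulls. Of the 3691 regions in 2 or more control lists, 9.54% were in all 7 lists. FoxA sites 6 and 7, at chr5:90879004-90879434, gave identical levels and stood at 4.87% and 6.94% in controls, 10.2% and 9.45% in developmental nulls and 8.51% and 6.91% in adult nulls. Both developmental nulls lay above both controls, by 3.92 points (adjusted p = 0.454, limma).

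A further 4 regions were called in controls 1 and 2 and in at least 1 adult null list, and in neither developmental null list. They lie at chr5:90898136-90898516, chr5:90898556-90898935, chr5:90903196-90903542 and chr5:90951773-90952069. The one at chr5:90898556-90898935 was in the list of adult null 2 and the other 3 were in both adult null lists. For those 3, in order of position, the caller's false discovery rate was 19.4%, 98.3% and 68.3% in adult null 1. In adult null 2 it was 4%, 5.48% and 7.53%. Presence in the list of adult null 1 is therefore weak evidence where that rate is high. None of the 4 regions was in the list of control 3, which held 1 peak in the window and 1770 in all. They are thus not calls of every control. Among the 2427 regions in the lists of controls 1 and 2 but not 3, 79.7% were in neither developmental null list, 85.2% were in an adult null list, and 66.7% were in an adult null list and in neither developmental null list. The 4 window regions thus followed the most frequent pattern over the genome. Of the 5 window regions in 2 or more control lists, 1 was in a developmental null list and 5 in an adult null list. Over all 3691 such regions, 36.7% were in a developmental null list and 85.9% in an adult null list. By single list, the shares were 32.1% for developmental null 1, 19.8% for developmental null 2, 71% for adult null 1 and 80.9% for adult null 2. The share in neither developmental null list was 63.3%.

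The strongest of these 4 regions was the first, with folds of 18.8 and 12.7 in controls 1 and 2 and 28.6 and 29.4 in the adult nulls. It lay 1014 bp from the nearest FoxA site. The region at chr5:90903196-90903542 overlapped FoxA site 12, at chr5:90902999-90903398, with folds of 10.8 and 6.59 in controls and 16.4 and 20.0 in adult nulls. Site 12 stood at 1.33% and 5.00% in controls, 6.78% and 11.0% in developmental nulls and 5.26% and 8.53% in adult nulls. All 4 null libraries lay above both controls, by 5.72 points in developmental nulls and 3.73 points in adult nulls, and its adjusted p of 0.285 in developmental nulls (limma) was the lowest of the window.

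The remaining 5 regions were each in 1 list. They lie at chr5:90886282-90886574 (adult null 2), chr5:90889689-90889777 (developmental null 1), chr5:90893285-90893525 (adult null 1), chr5:90929689-90929800 and chr5:90997005-90997125 (both control 1). The caller gave the adult null 2 peak a false discovery rate of 11.0% and the adult null 1 peak 35.5%. For the developmental null 1 peak, reads of the locus and of any copy in the Alfp Cre transgene cannot be told apart. The one in adult null 1 overlapped FoxA site 8, at chr5:90893400-90893799, which stood at 5.21% and 12.1% in controls, 2.78% and 10.6% in developmental nulls and 1.09% and 5.26% in adult nulls. The groups overlapped there, and the developmental difference of -1.94 points (adjusted p = 0.852, limma) changed sign to 1.49 without control 2 and 1.98 without developmental null 1. In all, 3 of the 10 HNF6 regions overlapped a FoxA site.

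**Figure D5:**
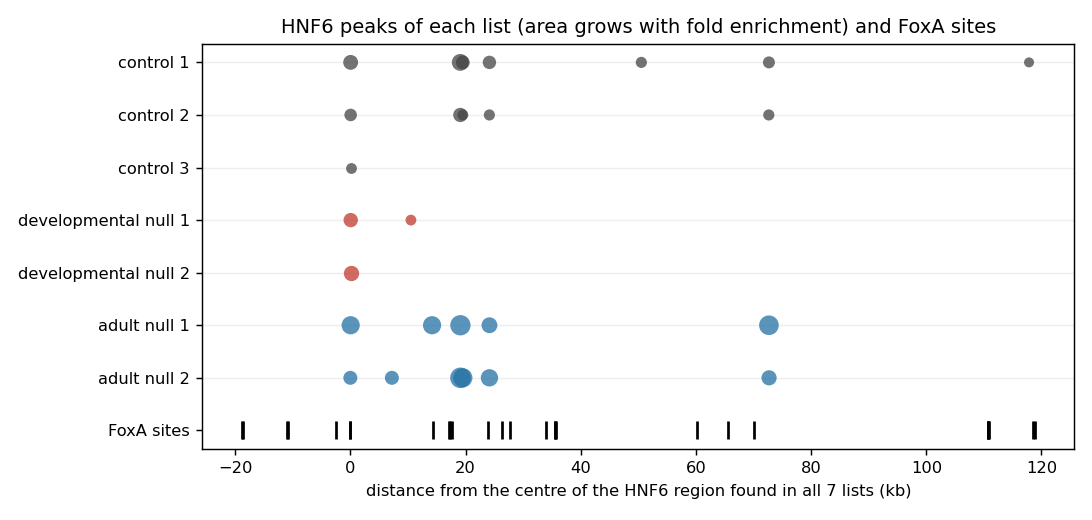
HNF6 peaks of the window in each of the 7 lists, as circles whose area grows with the fold enrichment the authors' peak caller gave, and the 27 FoxA sites (bottom), by distance in kb from the centre of the region found in all 7 lists. The developmental null lists hold 2 and 1 peaks here, the control lists 7, 5 and 1 and the adult null lists 5 and 6; folds of the adult lists come from another version of the caller.

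The peak lists differed in ways that move with the groups. The control and developmental null lists were made with MACS 2.1.1 and the adult null lists with MACS 1.4.3, per the file headers, with median peak widths of 82 to 150 bp and of 307 and 320 bp, which means that for the adult lists the genotype cannot be told apart from the caller. The developmental null lists, with 3122 and 1188 peaks in all, and that of control 3 were the 3 shortest. Redundant reads were 62% and 48% in the developmental null libraries and 53%, 58% and 38% in the controls. The part of these differences in the window's peak counts was not tested.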

How the data were processed

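The members and lists were chosen with earlier results of these data known. The genome build was mm9, and the tools named for bisulfite reads were BSMAP 2.74 and Trim Galore 0.3.3, per the submitters' processing notes. The deposited WGBS and RRBS tables give methylation as a fraction per region, multiplied by 100 here; coverage is not in the tables, and 8 columns of authors' averages were not used. In the deposited adult WGBS table, control 1 equals that of the developmental table, and the column headed as developmental null 1 equals control 2 at all 28654 common sites, so both tables were joined to 6 libraries. The deposited HNF6 lists give per peak the tag count, pileup signal, a ratio (fold enrichment), -log10 p and q in MACS 2.1.1 lists and a score of -10log10 p and a percent false discovery rate in MACS 1.4.3 lists, per the file headers. HNF6 libraries held 16760874 to 30469386 ChIP tags.

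Percent methylation was fitted over all sites or tiles with limma 3.58.1 (R 4.3.3; moderated variance with a trend, Benjamini-Hochberg, threshold 0.05), tested on simulated data. Tiles needed a value in every library of the groups compared, and all RRBS groups shared the spread. Groups were fitted without pairing. HNF6 peaks were joined where they overlapped by 1 bp. Every library's level was given for window sites past the threshold (none), the 6 largest and 3 smallest developmental differences, sites overlapping an HNF6 peak, and the 6 tiles with the largest age series difference. Promoters came from RefSeq; the 3 genes matched by symbol.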

Additional observations from a re-analysis of the deposited data

Results flagged for a closer look

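FoxA site 27 (chr5:90997868-90998267) stood out because both developmental null libraries lay above both controls and both adult null libraries below both. Developmental nulls were 15.6 points higher than adult nulls; the direct test gave an adjusted p of 0.134 (limma). One of the developmental null libraries exceeded the higher control by little, 13.8% in both after rounding.

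In the RRBS age series, tile 18 (chr5:90921701-90921800) had a library apart from the other 3 in each genotype: the 20-day control at 27.1% and the 4-month developmental null at 14.1%. These came from 12 groups of 4 libraries looked at. The tiles had been picked for large differences, and the other 3 nulls of tile 18 all stood at 0%. The usual chance rate of about 1 in 20 therefore does not apply here.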

How the results depend on the processing

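Of 84 other fits, 1 called a window site or tile: with levels of 5 to 95%, developmental against adult null called 1 site. Medians over the window depended on which control was kept, as given above, and the adult table alone gave 0.54 points for adult null minus control. Of 171 values of named sites and tiles under alternatives, 3 changed sign: site 8 without control 2 (1.49) or developmental null 1 (1.98; -5.86 to 1.98 over the libraries left out), and tile 18 without the 20-day control (1.43; -8.33 to 1.43). HNF6 regions of 2 or more control lists numbered 5, and 1 to 5 when a list was left out (1 without control 1 or control 2); with peaks at or above each list's median fold they numbered 2. Those also in an adult null list numbered 5, 1 to 5 and 2 in the same order. Both falls follow from the counting rules. All but 1 of the regions were, among the control lists, in those of controls 1 and 2 only. Under the median fold of control 2 lay the regions at chr5:90898556-90898935, chr5:90903196-90903542 and chr5:90951773-90952069. Library numbers did not pair the WGBS libraries (correlations of deviations from -0.009 to 0.008); in the age series they were 0.366, 0.109, 0.149 and 0.060, so ages pair only in part. With the replicate block the window count stayed at 0 in all 7 comparisons that allow it, but the calls over all sites or tiles moved: from 1390 higher and 82 lower to 970 and 42 for WGBS developmental null minus control, and from 650 and 231 to 2149 and 1018 in the RRBS age series. Over all alternatives the calls over whole tables ranged from 0 to 3378 for WGBS developmental null minus control (1472 in the main setting), 0 to 4 for adult null minus control (0) and 219 to 3593 for developmental against adult null (2302). In RRBS they ranged from 0 to 3167 in the age series (881), 0 to 43 at 7 days (20), 0 to 641 at 13 days (33), 0 to 410 after hepatectomy (9), 0 to 31152 for FoxA1L/L;FoxA2L/+ (23161) and 0 to 33586 for FoxA1L/+;FoxA2L/+ (23795). Each RRBS count of 0 came with the spread taken from the 2 groups compared. Unknown coverage limits every level here.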
